A study of Mus musculus with 25 samples.

Results

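The nuclear-encoded subunits of the mitochondrial respiratory chain were taken as the genes whose symbols carry the usual stems of the 5 complexes: Ndufa, Ndufb, Ndufc, Ndufs and Ndufv with a number for complex I, Sdha to Sdhd for complex II, Uqcr for complex III, Cox4 to Cox8 for complex IV and Atp5 for complex V, the ATP synthase. Of 37085 symbols in the count table, 89 matched, 41 of them of complex I, 4 of complex II, 8 of complex III, 19 of complex IV and 17 of complex V. Symbols marked as pseudogenes were left out, which removed 13. The rule used names and no measured value. By its symbol Ndufa4 was counted with complex I, although its protein is known as a subunit of complex IV. Enough reads for a test were found for 78 of the 89: 37 of complex I, 4 of complex II, 8 of complex III, 12 of complex IV and 17 of complex V. The 11 without a test were Cox4i2, Cox6a2, Cox6b2, Cox6c2, Cox7b2, Cox8b, Cox8c, Ndufa4l2, Ndufa11b, Ndufb11b and Ndufs6b, with 0 to 150 counts each over all libraries.

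Complexes I to IV pass electrons from NADH and succinate through coenzyme Q and cytochrome c to oxygen and, except complex II, pump protons out of the mitochondrial matrix; complex V uses the returning protons to make ATP. Most subunits are encoded in the nucleus and imported, while a few core subunits of complexes I, III, IV and V are encoded in mitochondrial DNA. Hepatocytes are rich in mitochondria and use the chain to oxidise fatty acids and to power glucose and urea synthesis.

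The cells were hepatocytes of C57BL/6 mice, obtained by collagenase perfusion of the liver and sorted by flow cytometry after a low-speed spin. The gate, the diet's composition and the age of the mice were not given in the sources used here. Polyadenylated RNA was counted by its 3′ ends in 25 libraries: 5 from mice on normal diet at 0 weeks, and 4, 3, 4, 3, 3 and 3 from mice after 1, 2, 3, 4, 5 and 6 weeks of a diet that induces NASH, a fatty liver disease with inflammation. No genetic change or drug is named for any group, and no label says that libraries came from separate mice, so p-values measure only the spread between these libraries.

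Totals ran from 5281143 to 10015751 counts per library. All 12 hepatocyte markers stood at 1 CPM (counts scaled to a fixed library total) or more in every group. At weeks 5 and 6, 7 of the 12 fell, and their summed level was 112309 CPM ± 3698 (SD, n = 5) on normal diet, 82877 ± 3954 (n = 3) at week 5 and 84381 ± 2092 (n = 3) at week 6. Markers of Kupffer, endothelial, stellate and monocyte-derived cells were present on normal diet, and at week 5 edgeR called 12 of 12, 15 of 15, 15 of 16 and 11 of 12 of them higher. The summed level of 12 Kupffer cell markers was 432 CPM ± 226 before the NASH diet, 1965 ± 98.3 at week 5 and 1746 ± 141 at week 6. That of 15 sinusoidal endothelial markers was 389 ± 233, 1781 ± 122 and 1484 ± 171 CPM in the same groups, and that of 16 stellate cell markers was 175 ± 52.3, 1049 ± 327 and 877 ± 201 CPM. For 12 monocyte and macrophage markers it was 175 ± 134, 795 ± 123 and 865 ± 190 CPM. Of 7 cholangiocyte markers 1 was tested, which fell by 0.98 log2 at week 4 and was not called at week 5 or 6, and their sum was 41.4, 27.6 and 35.7 CPM. From these counts alone, fewer hepatocytes, less RNA per hepatocyte and other reasons for the lower hepatocyte markers cannot be told apart.

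The choice of scale bears on every value given here. Levels are CPM scaled by TMM composition factors, which set the bulk of genes as equal between libraries, unless library-total CPM is named, which divides by the library's total alone. The factors were 0.864 to 0.935 on normal diet, 1.12 to 1.16 at week 5 and 1.10 to 1.15 at week 6. Between these scales the median log2 change of all 11869 genes tested moved from -0.05 to 0.28 at week 5 and from -0.05 to 0.25 at week 6. A difference in log2 fold change between subunits and the median gene is hardly touched by that choice, while the change of a subunit alone is.

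Subunit genes were lower at weeks 5 and 6 than on normal diet in all 5 complexes by composition-scaled levels, while with library size only the week 5 medians of the complexes ran from -0.10 to -0.00 log2. With composition scaling, 55 of the 78 tested subunit genes fell at week 5 and 47 at week 6, and none rose, while 19.1% and 16.3% of all genes did (edgeR quasi-likelihood test, Benjamini-Hochberg adjusted p under 0.05 over all genes). Among all genes tested, 16.3% fell at week 5 and 10.5% at week 6. A fit of only the groups compared called 54 of 77 subunits at week 5 and 20 at week 6. The share of all genes called in these fits is not given here. In that week 5 fit Cox5a was called higher, by 0.89 log2. The median subunit changed by -0.42 log2 at week 5, a decrease of 25.2%, and by -0.40 at week 6. The 3 week 5 libraries lay below all 5 normal-diet libraries for 63 of 78 subunits, against 18.2% of all genes, and the 3 week 6 libraries did so for 42, against 10.6%. Both weeks were compared with the same normal-diet libraries. The 59 subunits that fell at one or both weeks left 19 called at neither.

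Without composition factors only 5 subunits fell at week 5, where 3.08% of all genes did, and 2 at week 6, where 1.95% did, with no subunit called higher, where 31.8% and 27.5% of all genes were. The 5 were Uqcrh, Ndufs7, Ndufs4, Ndufa12 and Atp5mpl, and the 2 were Uqcrh and Cox7b. On that scale the median subunit stood at -0.08 at week 5 and -0.10 at week 6. Relative to the median of all genes the subunits stood at -0.37 at week 5 and -0.36 at week 6 with composition scaling, and at -0.36 at both weeks without it. As a share of all counts, the 89 genes together took 1.82% ± 0.121 (SD, n = 5) on normal diet, 1.75% ± 0.0359 (n = 3) at week 5 and 1.69% ± 0.120 (n = 3) at week 6, so their share of the library overlapped between groups. In the library-total CPM, 18 subunits had all 3 week 5 libraries below all normal-diet libraries, against 3.84% of genes, and 5 had this at week 6, against 1.81%.

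**Figure D1:**
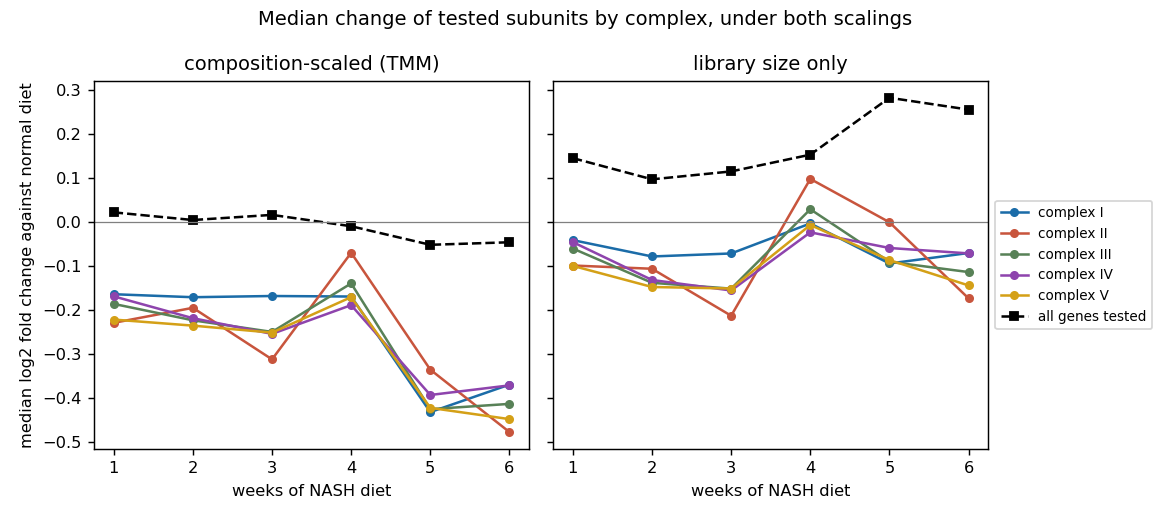
Median log2 fold change against normal diet of the tested subunits of each complex (coloured lines) and of all genes tested (dashed) after 1 to 6 weeks of the NASH diet, with composition factors (left) and with library size only (right). The subunit medians lie below the median of all genes at every week in both panels; the medians of complexes II and III at week 4 are negative on the left and positive on the right.

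Earlier weeks showed smaller differences. No subunit was called by edgeR at weeks 1, 2 or 3, where 0.977%, 0.657% and 0.607% of all genes fell. Unadjusted p was under 0.05 for 22, 18 and 33 subunits, against 1238, 1443 and 1635 of all 11869 genes. DESeq2 called 8, 1 and 2 subunits, against 265, 198 and 217 of all genes, and limma-voom called none. All libraries of the week lay below all normal-diet libraries for 19, 14 and 21 subunits, against 2.85%, 3.76% and 3.19% of all genes. In library-total CPM they did so for 6, 7 and 5 subunits. The share of all genes on that scale is not given here, so these counts cannot be set against it. The median subunit stood at -0.17, -0.19 and -0.22 log2 with composition factors and at -0.05, -0.10 and -0.12 without them. At week 2 the median depended on single libraries, with -0.31 without week 2 library 3 and -0.09 without week 2 library 1. At week 4, 3 subunits fell, against 2.86% of all genes: Ndufa12 by 0.42, Ndufs7 by 0.35 and Uqcrh by 0.32 on the log2 scale. All 3 week 4 libraries lay below normal diet for 21 subunits, against 6.65% of all genes. In library-total CPM this held for 4 subunits, again without a share of all genes to set beside it. None was called without composition factors, where 1.26% of all genes fell, or without normal-diet libraries 1 and 5. Leaving out 1 library changed the week 4 count often: it was 0 without normal-diet library 1 or 5 or week 4 library 1 or 2, and 1 without normal-diet library 2 or 3. It was 5 without normal-diet library 4, week 2 library 1 or week 4 library 3, 6 without week 6 library 1 and 7 without week 6 library 2. Shares of all genes in these fits are not given here.

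The 78 subunits were highest on normal diet in 62 cases and lowest at week 5 or 6 in 45 and 22 cases, by group means of composition-scaled CPM. By library-total CPM, normal diet was highest for 30 and week 4 for 22, and the lowest mean fell at week 3 for 27, at week 5 for 21 and at week 6 for 11. Averaged over weeks 1 to 6, 43 subunits were lower than on normal diet, against 8.87% of all genes, and 2 without composition factors, against 2.49%. For 5 subunits all 20 libraries of the diet lay below normal diet, against 0.666% of all genes. In library-total CPM this held for 0 subunits. The count called was 26 without normal-diet library 3 and 18 without normal-diet libraries 1 and 5. Weeks 5 and 6 together lay below weeks 1 to 3 for 40 subunits, against 18.4% of all genes, with a median of -0.21, and for 1 subunit without composition factors, where 4.34% of all genes fell and the median was 0.01. All 6 later libraries lay below the 11 earlier ones for 5 subunits, against 2% of all genes, and for 0 in library-total CPM. This comparison does not use the normal-diet libraries. For both counts of 0 in library-total CPM the share of all genes is not given here. A test of any difference among the 7 groups called 36 subunits, against 29.9% of all genes, and 24 without normal-diet library 5 or 23 without week 5 library 2. Without composition factors edgeR called none, against 29.2% of all genes. For the fits that left out libraries the share of all genes called is not given here.

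The week 5 count ran from 43 to 57 over fits that each left out 1 library. The week 6 count was 29 without week 6 library 3 and 53 without week 6 library 2. Shares of all genes in those fits are not given here. Levels of Kupffer, endothelial and stellate markers moved with the diet groups. When their mean log2 level was added to the model as a term, the median subunit change was -0.36 at week 5 and -0.33 at week 6. The median standard error then was 0.22 at week 5, against 0.12 without the term. No subunit was called by edgeR with the term in any comparison, and unadjusted p was under 0.05 for 16 subunits at week 5 and 20 at week 6. With the term, 11 of all 11869 genes were called at week 5 and 21 at week 6. The marker level ran from 2.34 to 4.15 log2 CPM on normal diet and from 5.38 to 5.94 at weeks 5 and 6, so the groups did not overlap in it, and its part cannot be told apart from that of the diet. Within the normal-diet group, libraries 5 and 1 had the lowest marker levels, 2.34 and 2.71, and mean subunit levels of 7.29 and 7.26 log2 CPM. The other 3, at 3.62, 3.74 and 4.15, had 7.36, 7.41 and 7.27.

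**Figure D2:**
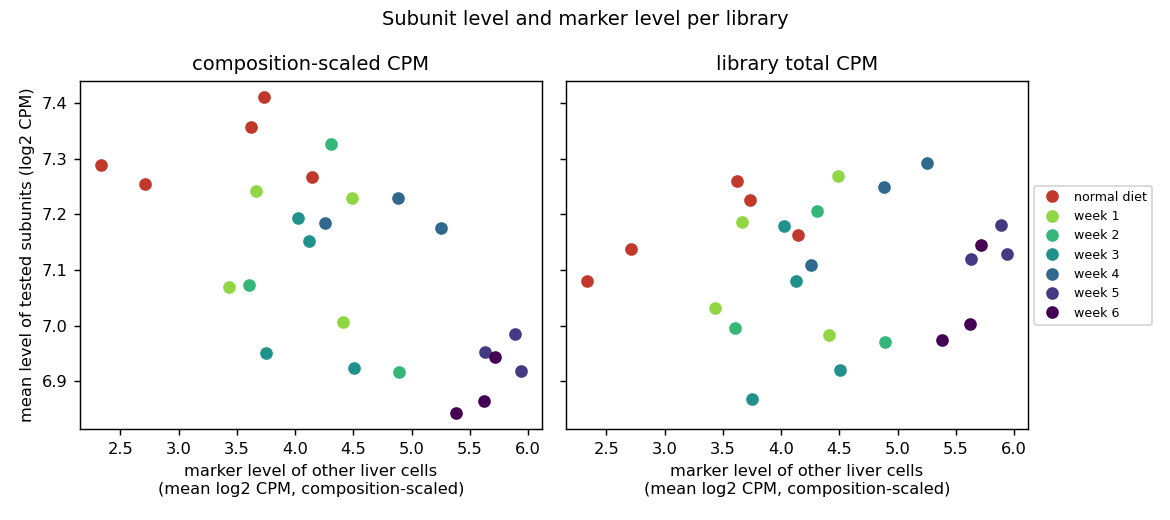
Mean log2 CPM of the 78 tested subunits (vertical axis; composition-scaled on the left, library-total on the right) against the mean log2 CPM of Kupffer, endothelial and stellate markers (horizontal axis), 1 point per library. The week 5 and 6 libraries have the highest marker levels, 5.38 to 5.94, next to week 4 library 1 at 5.25; their subunit levels lie below all normal-diet libraries, at 6.84 to 6.99, in the left panel and within the range of the other groups in the right panel.

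The promoters of 4 subunits with the smallest week 5 p among those with an entry are shown to let their sequences be compared. They come from RefSeq, build GRCm38.p6, and run from 250 bases before to 50 bases after the gene's start, 5′ to 3′ on the gene's strand. Uqcrh lies at chr4:116075021-116075320 (minus strand), Ndufs4 at chr13:114388045-114388344 (minus), Ndufs7 at chr10:80249199-80249498 (plus) and Ndufv1 at chr19:4012706-4013005 (minus). Capitals mark a match to 1 of 4 motifs searched.
Uqcrh: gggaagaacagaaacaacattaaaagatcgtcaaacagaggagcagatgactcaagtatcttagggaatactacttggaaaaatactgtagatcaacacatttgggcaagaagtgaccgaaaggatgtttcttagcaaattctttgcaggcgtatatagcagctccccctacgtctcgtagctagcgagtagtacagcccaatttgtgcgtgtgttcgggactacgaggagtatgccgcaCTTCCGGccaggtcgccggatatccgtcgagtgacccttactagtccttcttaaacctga
Ndufs4: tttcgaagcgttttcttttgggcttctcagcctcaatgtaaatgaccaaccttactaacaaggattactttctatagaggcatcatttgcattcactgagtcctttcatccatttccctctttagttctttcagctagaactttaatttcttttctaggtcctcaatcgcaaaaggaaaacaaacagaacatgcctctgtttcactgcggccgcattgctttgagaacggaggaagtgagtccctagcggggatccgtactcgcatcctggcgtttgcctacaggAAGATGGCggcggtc
Ndufs7: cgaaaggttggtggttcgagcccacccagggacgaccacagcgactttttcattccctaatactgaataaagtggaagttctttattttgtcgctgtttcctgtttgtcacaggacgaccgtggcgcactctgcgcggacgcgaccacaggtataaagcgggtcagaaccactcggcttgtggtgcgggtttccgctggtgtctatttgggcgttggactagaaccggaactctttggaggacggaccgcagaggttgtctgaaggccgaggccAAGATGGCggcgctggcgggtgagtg
Ndufv1: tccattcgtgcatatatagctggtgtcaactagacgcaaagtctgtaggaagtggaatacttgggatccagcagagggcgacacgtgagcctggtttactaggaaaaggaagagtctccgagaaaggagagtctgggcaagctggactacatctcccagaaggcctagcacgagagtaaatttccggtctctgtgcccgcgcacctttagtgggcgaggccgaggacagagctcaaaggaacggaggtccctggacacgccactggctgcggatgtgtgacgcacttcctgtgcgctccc
Uqcrh holds the ETS core, bound by GABPA, on the minus strand from position -10. Ndufs4 and Ndufs7 hold the YY1 motif on the plus strand from positions +36 and +25 and Ndufv1 holds none of the 4.

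The motifs were searched on both strands in the 65 tested subunits with a promoter entry, and in all 9232 tested genes with one. The palindromic NRF1 consensus is in 7.69% of the subunits and 2.39% of the tested genes. The ETS core, CCGGAAG, is in 26.2% and 20.0%, the YY1 motif, AAGATGGC, in 15.4% and 5.39%, and the ERR motif, CAAGGTCA, in 6.15% and 1.33%. Over all 27025 genes with an entry the shares were 1.07%, 9.93%, 3.19% and 1.76%. In no subunit promoter did matches of 2 motifs overlap. The YY1 motif was found in 10 subunits, among them Ndufa3, Ndufa9, Ndufc1, Atp5j2 and Atp5pb, and NRF1 in 5, among them Cox6a1 and Uqcrc1. A match is a description of letters and not a binding site.

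Complex I takes electrons from NADH, and 28 of its 37 tested genes fell at week 5 and 23 at week 6, with medians of -0.43 and -0.37 log2. Of all genes 16.3% and 10.5% fell. With library size only 3 and 0 genes of the complex fell, where 3.08% and 1.95% of all genes did. Ndufs7, a core iron-sulfur subunit, had 88.8, 95.2, 96.7, 82.9 and 89.8 CPM in the normal-diet libraries, 58.4, 57.6 and 59.0 at week 5, and 53.8, 81.9 and 61.8 at week 6. Both later groups lay below all normal-diet libraries, week 6 library 2 just so. The change was -0.64 ± 0.11 log2 (SE) at week 5 (edgeR adjusted p = 0.000103) and -0.46 ± 0.11 at week 6 (adjusted p = 0.0026). Library size alone gave -0.30 ± 0.10 at week 5 (adjusted p = 0.0224).

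Ndufs4, an accessory subunit whose loss is a known cause of Leigh syndrome, had 109, 104, 111, 93.7 and 115 CPM in the normal-diet libraries, 68.6, 68.3 and 74.4 after 5 weeks, and 73.3, 78.0 and 83.1 after 6 weeks. No library of weeks 5 or 6 reached the lowest normal-diet value. The week 5 change was -0.60 ± 0.10 (adjusted p = 8.4e-05 by edgeR), and -0.26 ± 0.08 with library size only. Ndufv1, the core subunit that binds NADH and its flavin, had 225, 215, 221, 216 and 230 CPM in the normal-diet libraries, 142, 148 and 161 after 5 weeks, and 147, 199 and 159 after 6 weeks. Week 6 library 2 again stood nearest to normal diet. Ndufv1 fell by 0.56 at week 5 with composition factors. Ndufa12, an accessory subunit of the same matrix arm, had 135, 123, 131, 113 and 139 CPM on normal diet against 89.0, 75.7 and 86.7 at week 5. Its week 6 values ran from 78.0 to 115 and overlapped normal diet in 1 library.

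Other genes of complex I changed by like amounts at week 5. Ndufb9, an accessory subunit and by mean level the most abundant of complex I here, fell from 370 CPM ± 16.0 (SD, n = 5) to 261 ± 8.85 (n = 3). The core subunit Ndufv2 changed by -0.47, and the accessory subunits Ndufa3, Ndufa5, Ndufa9, Ndufa13, Ndufb10, Ndufc1 and Ndufc2 by -0.39 to -0.54, each called at both weeks. With library size only none of these 9 genes was called at week 5. At week 6 Ndufa3 and Ndufa13, which were called at -0.28 and -0.27, stood at 0.02 and 0.04 on that scale. Ndufa4, with 183, 222, 228, 203 and 223 CPM on normal diet and 188, 172 and 191 at week 5, was called in no comparison. Its paralog Ndufa4l2, known from hypoxic cells, was too low to test, with 0 to 8 counts per library.

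Complex II, which oxidises succinate and belongs to the TCA cycle as well, has 4 subunits. Of these 2 fell at week 5 and 3 at week 6, against 16.3% and 10.5% of all genes. With library size only 0 fell at each week, where 3.08% and 1.95% of all genes did. Sdha, the flavoprotein, had 301, 304, 316, 294 and 272 CPM in the normal-diet libraries, 231, 214 and 226 after 5 weeks, and 214, 261 and 204 after 6 weeks. All 6 later values were below all 5 on normal diet. Its change was -0.41 at week 5 and -0.39 at week 6 (SE 0.11 at each; adjusted p = 0.0038 and 0.0073 by edgeR). The iron-sulfur subunit Sdhb fell by 0.51 at week 5, from 371 to 510 CPM down to 270, 297 and 335. Of the membrane anchors, Sdhc fell by 0.56 at week 6 and had -0.26 at week 5 without a call. Sdhd is described with the genes that varied between libraries. At week 5 with library size only, the median of complex II was -0.00.

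Complex III passes electrons from coenzyme Q to cytochrome c, and 7 of its 8 genes fell at week 5 and 5 at week 6. Of all genes 16.3% and 10.5% fell. With library size only 1 gene of the complex fell at each week, where 3.08% and 1.95% of all genes did. Uqcrh, the hinge protein, had the smallest week 5 p of all subunits. Its levels were 442, 445, 482, 457 and 438 CPM in the normal-diet libraries, 303, 289 and 310 after 5 weeks, and 291, 331 and 301 after 6 weeks. In weeks 1 to 4 its 14 libraries ran from 320 to 405 CPM, so all 20 libraries of the diet lay below the lowest normal-diet value. The change was -0.59 ± 0.10 at week 5 (edgeR adjusted p = 5.1e-05) and -0.56 ± 0.10 at week 6, and -0.26 ± 0.08 at both weeks with library size only (adjusted p = 0.0199 and 0.0228). Averaged over weeks 1 to 6 it changed by -0.40, and by -0.21 with library size only, called both times.

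Uqcrq, the most abundant gene of complex III, had 764, 763, 749, 723 and 765 CPM on normal diet and 581, 545 and 577 at week 5, with 549, 676 and 588 at week 6. In weeks 1 to 4 it stood at -0.05 to -0.09 log2 without a call, and it fell by 0.41 at week 5. Uqcrc2, a core protein of the matrix side, had 265, 206, 250, 208 and 253 CPM on normal diet and 172, 173 and 168 at week 5. Uqcrb, which lines the ubiquinone site, fell by 0.34 and 0.44 at weeks 5 and 6.

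Complex IV reduces oxygen, and 7 of its 12 tested genes fell at week 5 and 5 at week 6. Of all genes 16.3% and 10.5% fell. With library size only 0 and 1 genes of the complex fell, where 3.08% and 1.95% of all genes did. Cox7b had 347, 318, 331, 317 and 341 CPM in the normal-diet libraries, 236, 216 and 253 after 5 weeks, and 206, 208 and 236 after 6 weeks. The groups stood well apart. Its change of -0.61 ± 0.11 at week 6 (edgeR adjusted p = 0.00028) was -0.31 ± 0.10 with library size only (adjusted p = 0.0192). Cox5b, a zinc-binding subunit, changed by -0.48 at both weeks, and Cox6b1 by -0.39 and -0.44. Library size only ended the calls of these 2.

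Several complex IV subunits have paralogs, only some of them liver and heart or muscle forms. Cox4i1, Cox6a1, Cox6b1 and Cox8a carried nearly all the counts of their sets. Cox4i1 had 371, 397, 401, 385 and 398 CPM on normal diet and 296, 286 and 296 at week 5, a change of -0.41. At week 6 it had 296, 395 and 270 CPM, with no call. Its lung paralog Cox4i2 had 1 count in all 25 libraries. Cox6a1 held 617 CPM ± 39.3 before the diet and was the most abundant gene of the complex after Cox7c, while its muscle form Cox6a2 had at most 5 counts in a library. Cox6b2 had at most 19. Cox8a had -0.21 at week 5 without a call, Cox8b had 1 count in all libraries and Cox8c none.

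The Cox7a genes differed in level and in what was called. Cox7a2, the liver form, fell by 0.51 at week 5, from 453, 499, 478, 451 and 408 CPM to 337, 308 and 322. Cox7a1, the heart and muscle form, was present at 3.99, 4.31, 4.36, 3.63 and 4.82 CPM on normal diet, and its 20 libraries of the diet ran from 1.08 to 3.56 CPM, all lower. In library-total CPM week 2 library 1 (3.41) and week 5 library 3 (4.09) lay within the normal-diet range of 3.38 to 4.17. Averaged over the 6 weeks Cox7a1 changed by -0.84 ± 0.22 (edgeR adjusted p = 0.009), and by -0.65 ± 0.22 with library size only (adjusted p = 0.0335). It rests on 7 to 30 counts per library. Cox7a2l had -0.14 at week 5 and -0.11 at week 6, with SE 0.11 and no call. Its normal-diet range of 70.5 to 87.3 CPM overlapped that of week 5, 65.5 to 79.8 CPM.

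Complex V had 11 of 17 genes lower at each of weeks 5 and 6, against 16.3% and 10.5% of all genes. With library size only 1 and 0 genes of the complex fell, where 3.08% and 1.95% of all genes did. Atp5mpl, a small membrane subunit, had 263, 279, 279, 258 and 258 CPM on normal diet, 177 to 184 at week 5, and 190, 230 and 186 at week 6. All 6 later libraries lay below normal diet. It fell by 0.57 at week 5 (edgeR adjusted p = 6.9e-05), and by 0.23 with library size only (adjusted p = 0.0423). Atp5o, the stalk protein that confers sensitivity to oligomycin, fell by 0.56 and 0.48 at weeks 5 and 6. Atp5b, the catalytic beta subunit, had 607, 595, 625, 568 and 628 CPM in the normal-diet libraries, 445, 429 and 431 after 5 weeks, and 439, 373 and 487 after 6 weeks, again without overlap. It changed by -0.47 and -0.48. Atp5c1, Atp5h, Atp5j2 and Atp5pb, of the central and peripheral stalks and the membrane part, changed by -0.42 to -0.50 at week 5 and were called at both weeks. Of these genes only Atp5mpl was called with library size only.

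Subunit c, which forms the turning ring, is made from 3 genes with the same mature protein. Atp5g3 was the most abundant of all subunit genes, with 1243, 1982, 1860, 1730 and 1176 CPM on normal diet and 1357, 1251 and 1353 at week 5. The groups overlapped, and no comparison called it. Atp5g1 had 192, 221, 258, 232 and 206 CPM on normal diet and 151, 147 and 165 at week 5, a change of -0.52 ± 0.13 (edgeR adjusted p = 0.0027). Atp5g2 was counted at 0.404 to 1.71 CPM on normal diet and was called in no comparison. Of the 50-base words in the last 300 bases of Atp5g2, 98.4% also occur in transcripts of other genes, and how such reads were counted is not known here. The ATP synthase inhibitor Atpif1, which lies outside the symbol rule, had 27.7 to 35.1 CPM on normal diet and 41.2, 43.2 and 42.2 at week 5, above all normal-diet libraries, with no test given. At week 6 it had 36.5, 39.5 and 34.6 CPM, the last within the normal-diet range. In all 7 libraries of weeks 1 and 2 it lay below the normal-diet libraries, at 20.7 to 26.7 CPM.

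**Figure D3:**
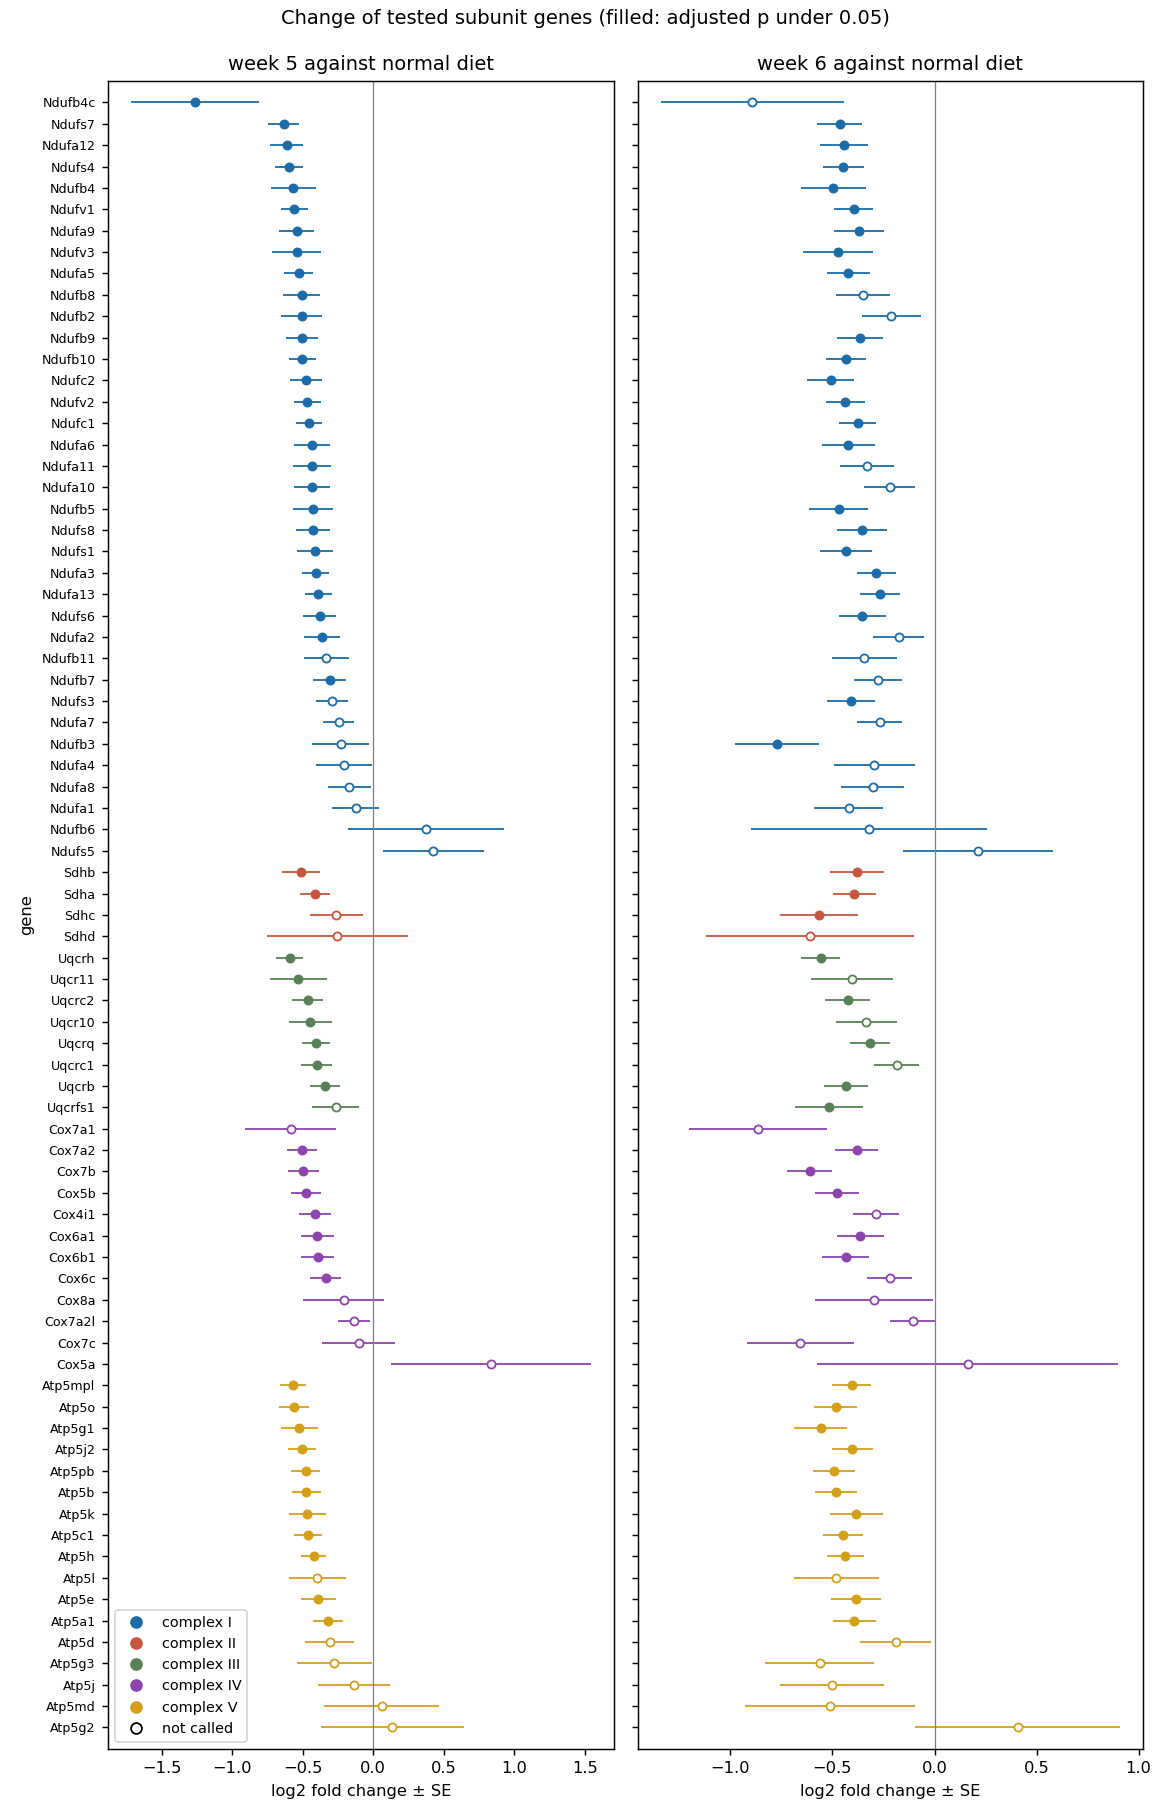
Log2 fold change ± SE against normal diet of 77 of the 78 tested subunit genes at week 5 (left) and week 6 (right), composition-scaled, grouped and coloured by complex and ordered by the week 5 change. Filled points passed an adjusted p of 0.05: 54 at week 5 and 46 at week 6, all below 0. Of all genes tested 16.3% and 10.5% fell. With library size only 5 and 2 subunits passed, where 3.08% and 1.95% of all genes fell.

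Summed over genes, complex I had 5858 CPM ± 226 (SD, n = 5) on normal diet and 4399 ± 105 (n = 3) at week 5, complex III 2509 ± 80.6 and 1849 ± 42.6, and complex V 6586 ± 529 and 5059 ± 122. In library-total CPM the same pairs were 5304 ± 229 and 5028 ± 122, 2272 ± 101 and 2114 ± 32.2, and 5968 ± 547 and 5782 ± 117. With composition scaling the ranges of normal diet and week 5 did not overlap for these 3 complexes. They did overlap in library-total CPM. Since a 3′ tag is counted once per transcript, levels of different genes were compared without a length correction.

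**Figure D4:**
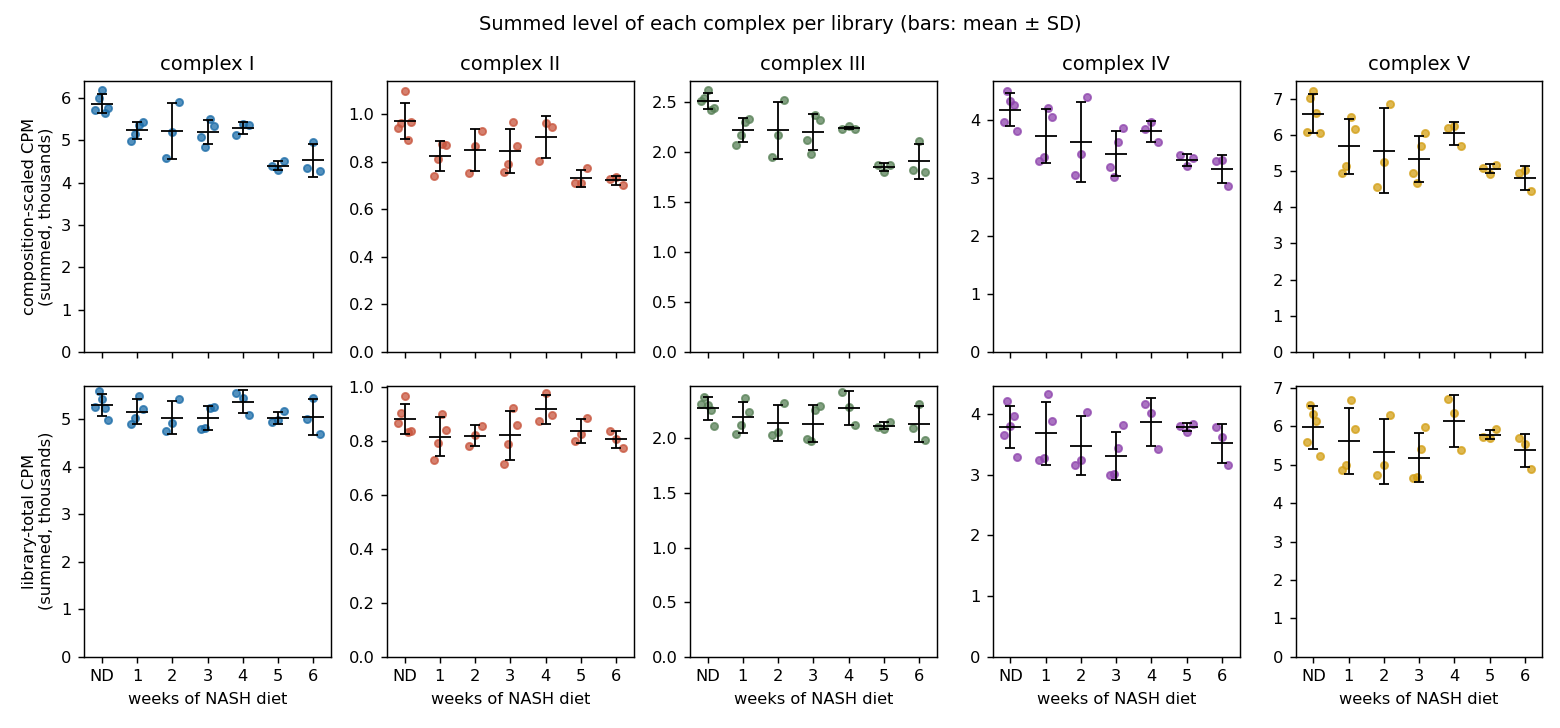
Summed CPM (axis in kilo-CPM) of the subunit genes of each complex in every library, by weeks of the NASH diet (ND, normal diet), composition-scaled above and library-total below; the horizontal mark and bar give mean ± SD. In the upper row week 5 lies below normal diet in complexes I, II, III, IV and V. In the lower row normal diet and week 5 overlap in each of these complexes.

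A few subunits varied widely between libraries of one group, and were chosen for description after their values were seen. Cox5a, an early-assembling subunit of complex IV, had 19.4, 0.431 and 7.06 CPM in the 3 libraries of week 6, and 6.07, 3.61, 28.6 and 13.3 in those of week 1. On normal diet it had 5.26, 10.3, 10.1, 8.75 and 6.35 CPM. Its counts ran from 3 to 208, and its SD within groups was 1.18 log2, above that of 99.8% of all genes tested. In the model of all groups it was called in no comparison. In fits of only 2 groups it was called higher at week 4, by 1.23 log2 (edgeR adjusted p = 0.0161), and at week 5, by 0.89 (adjusted p = 0.00629).

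Some other subunits were low in the same week 6 library as Cox5a. There, Ndufb6 of complex I had 21.9, 1.87 and 8.97 CPM, Sdhd of complex II 56.0, 2.73 and 47.8 CPM, and Atp5md of complex V 148, 30.2 and 89.8. Cox7c had 648, 224 and 509 CPM in those libraries. Week 6 library 2 was lowest for each of them. Uqcrh, with 291, 331 and 301 CPM, was highest in that library. Atp5md shared its highest library with Cox5a in 7 of 7 groups and its lowest in 6, and Ndufb6 in 6 and 5. Sharing both in at least 5 groups held for 8 of the other 77 subunits (10.4%): Atp5j, Atp5md, Cox7c, Ndufa6, Ndufb3, Ndufb6, Sdhc and Uqcrfs1. It held for 1.35% of all genes tested. Gapdh, a glycolytic enzyme outside the set, shared both in 5 groups, with 123, 48.6 and 113 CPM in week 6. It was chosen after its values were seen.

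**Figure D5:**
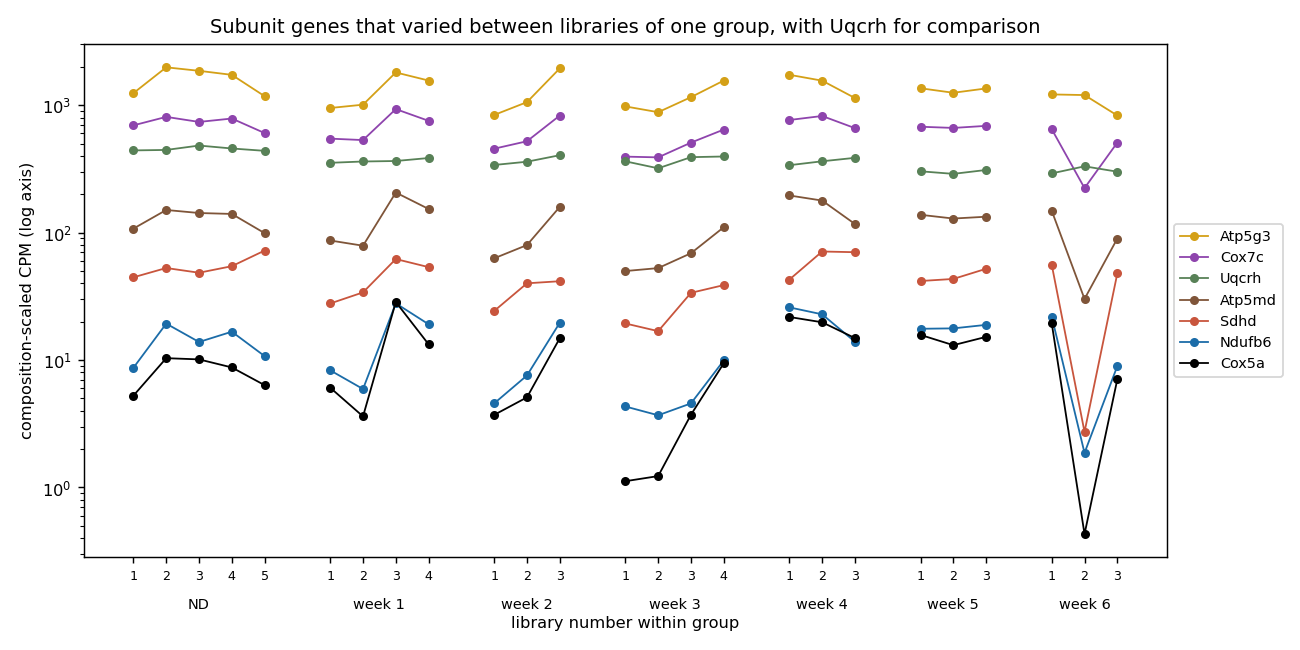
Composition-scaled CPM (log axis) of 7 subunit genes in each of the 25 libraries, numbered within their group; lines only join libraries of a group, whose order carries no meaning. Uqcrh stays between 289 and 482 CPM, while Cox5a, Ndufb6, Sdhd, Atp5md and Cox7c drop together in week 6 library 2.

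Shared sequence limits some of the counts. In 17 of 75 tested subunits with a transcript in the annotation (22.7%), more than 10% of the 50-base words of the last 300 bases also occur in another gene, against 4.73% of 11044 tested genes. The share was 99.2% for Cox7c and 70.1% for Atp5l, and 0 for Uqcrh, Ndufs7, Ndufb6 and Sdhd. Leaving out these subunits and those under 10 CPM, a choice made after seeing the data, gave medians of -0.43 at week 5 and -0.39 at week 6. By mean level 60 of the 78 tested subunits had at least 100 CPM, and 5 had under 10 CPM. Ndufb4c, 1 of these 5, fell by 1.26 log2 at week 5 on a mean level of 3.78 CPM. It had 6.71, 1.72, 3.11, 2.56 and 7.45 CPM on normal diet and 1.46, 1.67 and 2.14 at week 5. The groups overlapped, and normal-diet libraries 1 and 5 were the high ones.

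Genes that build or serve the chain were taken from lists, for week 5 unless another week is named. Among assembly factors, 10 of 16 tested for complex I fell, 1 of 4 for complex II, 3 of 6 for complex III, 6 of 21 for complex IV and 2 of 5 for complex V. Of all genes, 16.3% fell. Ndufaf7, a methyltransferase, changed by -0.88, Ndufaf4 by -0.52 and Ndufaf6 by -0.60. Uqcc1 changed by -0.62 and Coa3 by -0.53. At week 6 the counts were 6, 1, 1, 3 and 2, where 10.5% of all genes fell. With library size only the counts were 1, 0, 1, 0 and 0 at week 5, where 3.08% of all genes fell. On that scale 2 complex IV factors were higher, where 31.8% of all genes were. The medians of the lists were then positive for complexes II, IV and V.

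Cycs, the mobile electron carrier cytochrome c, fell by 0.56 at week 5, and Cyc1, cytochrome c1 of complex III, had -0.39 without a call. In coenzyme Q synthesis 4 of 11 fell, where 16.3% of all genes did, led by Coq5, Coq8a and Coq9 at -0.69, -0.84 and -0.52. With library size only 1 fell, against 3.08% of all genes, and the list's median was 0.19. In the TCA cycle 12 of 18 fell, among them Ogdh, Dlst and Idh3b at -0.45, -0.45 and -0.43, and none with library size only. Of genes for import and cristae 15 of 24 fell, among them Chchd3 at -0.48, Phb2 at -0.38 and Chchd2 at -0.44, and again none with library size only.

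Of 13 carriers and porins 5 fell and 1 rose at week 5, where 16.3% of all genes fell and 19.1% rose. With library size only 2 fell and 3 rose, against 3.08% and 31.8% of all genes. The one that rose was Slc25a4, the ADP/ATP carrier form of heart and muscle, with 5.39 CPM ± 1.46 (SD, n = 5) on normal diet, 22.5 ± 1.68 (n = 3) at week 5 and 20.8 ± 0.454 (n = 3) at week 6. Its change was 2.04 ± 0.29 log2 at week 5 (edgeR adjusted p = 1.8e-05), and it was 1.92 at week 6. Slc25a13 and Slc25a1 changed by -0.81 each. The other-cell markers named above moved with it, and their part was not tested.

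Subunits encoded in mitochondrial DNA serve the same complexes. Of 8 tested, edgeR called 0 at week 5, where unadjusted p was under 0.05 for mt-Co1 alone, and 1 at week 6, mt-Co1 at -0.33. Of all genes 16.3% and 10.5% fell, so the week 6 share of 1 in 8 was near that of all genes. The median of the 8 was -0.11 at week 5 and -0.19 at week 6, and 0.23 and 0.11 with library size only. On that scale 1 of the 8 was called higher at week 5, against 31.8% of all genes. At week 6 none was called, where 27.5% of all genes were higher and 1.95% lower, so the call of mt-Co1 was lost. The nuclear and mitochondrial lists were not tested against each other. Among regulators of mitochondrial biogenesis 4 of 13 fell at week 5 and 2 at week 6, where 16.3% and 10.5% of all genes fell, so the week 6 share was near that of all genes. With library size only 1 fell at week 5, against 3.08% of all genes, and 1 was higher at week 6, against 27.5%. Ppargc1a, the coactivator PGC-1α, had 19.7 CPM ± 6.46 (n = 5) in controls and 9.30 ± 1.36 (n = 3) at week 5, a change of -1.08 ± 0.25 (edgeR adjusted p = 0.0017). Polrmt, of mitochondrial transcription, changed by -0.56, and Tfb1m by -0.85. Nrf1, Gabpa, Yy1 and Esrra, the factors whose motifs were searched, had 0.17, -0.20, -0.17 and 0.06 at week 5, with no call.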

How the data were processed

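Per the labels' protocols, QuantSeq FWD reagents gave 25 libraries of 3′ tags. The authors deposited raw counts per gene symbol; FastQC, cutadapt, STAR 2.7.1a and build GRCm39 are named in the submitters' processing notes. No source used here names the counting tool or annotation, and reads that match several genes may have been dropped or assigned. Every sample column was used.

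Groups came from the sample titles. Genes kept by filterByExpr (11869) were tested in edgeR 4.0.16 (R 4.3.3) with TMM factors, 1 model of 7 groups (18 residual degrees of freedom) and robust quasi-likelihood F-tests, with Benjamini-Hochberg adjustment over all genes tested. A called gene had an adjusted p under 0.05. The model was tested on simulated data. Log2 levels used a prior count of 2. Alternatives used DESeq2 1.42.0, limma 3.58.1 (voom), other scalings, filters and sample sets. Promoters were matched by symbol for 68 of 89 subunits. Subunits and lists were chosen with earlier results of these data known.

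Named were, for each complex, the most abundant subunit and the 3 with the smallest p for any difference, the 30 called subunits with the smallest p, the paralog sets, and up to 3 called genes per pathway list. By this rule 47 of 89 subunits were named; 1 more is not reported here. Libraries of a group were no copies of each other: chi-squared over degrees of freedom was 5.77 to 35.1. Median biological coefficients of variation were 0.125 for tested subunits and 0.179 for all genes.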

Additional observations from a re-analysis of the deposited data

Results flagged for a closer look

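In 4 of 141 groups of 4 or 5 libraries, 1 library stood far from the others. The groups examined were those of the named subunits, of the complex sums and of the sum of all subunits. Chance gives about 1 group in 20. Ndufb9 had 342 CPM in normal-diet library 1, below 371 to 382 in the others. Cox7b had 358 CPM in week 3 library 3, above 258 to 262. Ndufb10 had 108 CPM in week 3 library 1, below 125 to 127. Cox7a2l had 64.7 CPM in week 1 library 1, below 77.7 to 80.4.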

How the results depend on the processing

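With library size only, 0 subunits were called at week 4, 5 at week 5, 2 at week 6, 2 over weeks 1 to 6, 1 between weeks 5 and 6 and weeks 1 to 3, and 0 for any difference; medians were -0.0462 at week 1, -0.00485 at week 4, -0.0827 at week 5, -0.10 at week 6, -0.0815 over weeks 1 to 6 and 0.00944 for the later against the earlier weeks. On that scale 5 called values of named subunits turned positive: Ndufa13 and Ndufa3 at week 6 (0.0352 and 0.0159), Ndufa3 over weeks 1 to 6 (0.0030), and Ndufb10 and Uqcrb for the later against the earlier weeks (0.0108 and 0.0213). With the marker level as a term, 0 were called at weeks 4, 5 and 6, over weeks 1 to 6, between later and earlier weeks, and for any difference. The DESeq2 test called 8, 1, 2 and 9 at weeks 1 to 4, and limma-voom 6 at week 4. Without the filter on low counts the counts were 0 at week 4 and 28 over weeks 1 to 6. Fits of only the groups compared gave 1 at week 4, higher, and 20 at week 6. Without normal-diet libraries 1 and 5 the counts were 0 at week 4 and 18 over weeks 1 to 6.

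Leaving out 1 library gave counts of 0 to 1 at week 1, 0 at weeks 2 and 3, 0 to 7 at week 4, 43 to 57 at week 5, 29 to 53 at week 6, 26 to 53 over weeks 1 to 6, 33 to 49 between later and earlier weeks and 23 to 48 for any difference. The median ran from -0.306 to -0.0949 at week 2. A replicate block gave 0 at week 4 and kept the other counts within 1.5 times. Of 25 libraries 9 correlated best with one of their own number, and the number that chance would give was not worked out. The mean correlation of same-numbered libraries was -0.0033 (highest 0.41), and of other-numbered ones 0.0011 (highest 0.45). On average, same-numbered libraries were no more alike than others. A batch shared by some libraries was not tested. DESeq2 size factors and a stricter filter moved no count by more than 1.5 times. For most of these settings the number of all genes called is not given here. The counts alone do not show whether subunits moved differently from other genes. Why the counts moved was not tested. Subunits with few counts had wide errors, such as Cox5a with an SE of 0.71 and Ndufb4c with 0.45 at week 5.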
